A study of Mus musculus with 81 samples.

Results

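The genes described here were those coding for the proteins of the cytosolic ribosome, measured by RNA-seq in mouse myeloid cells with and without histone H3.3. Members were all protein-coding genes whose symbol begins with Rpl or Rps followed by a digit, or with Rplp followed by a digit, together with Rpsa. Genes of the Rps6k kinase family and symbols marked as pseudogenes (-ps) were left out. The rule used names only, and it gave 86 genes of the 54079 listed in every file, of which 52 code for proteins of the large subunit and 33 for proteins of the small subunit. The remaining gene, Rps19bp1, matched the rule by its symbol, but its product is a protein that binds the small-subunit protein Rps19.

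The mice of every group carried floxed copies of both genes for H3.3 (H3f3a fl/fl, H3f3b fl/fl) on a C57BL/6 background, and were 8 to 10 weeks old and of both sexes. WT cells came from floxed mice with no cre. H3.3cKO cells (cKO in what follows) also carried LysM-cre on both alleles, which is placed in the lysozyme gene Lyz2 and is active in the myeloid lineage, so loss of Lyz2 went together with loss of H3.3 in each comparison. Bone marrow-derived macrophages (BMDMs) were grown in medium conditioned by L929 cells, a source of the growth factor M-CSF. There were 5 experiments: WT and cKO on days 3, 5 and 7 of culture, which the labels call BMDM progenitors on days 3 and 5 and BMDMs on day 7; day 8 BMDMs left untreated or given interferon gamma (IFNg) for 12 hours; peritoneal macrophages taken directly from the animal; BMDMs with no antibody, a control antibody or an antibody that blocks the type I interferon receptor chain IFNAR1; and 3 sets of WT and cKO BMDMs together with cKO BMDMs labelled as also lacking Sting, Mavs or Irf7. Each group had 3 libraries, except that cKO day 8 had 2 untreated and 2 IFNg libraries, because the labels of 2 further cKO day 8 libraries contradict each other about IFNg. Of 81 libraries, 79 were placed in 27 groups. The labels call the replicates of a group biological replicates without naming the animal or culture behind each, and the p-values measure the spread between these libraries.

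Ribosomal proteins surround the ribosomal RNA of the large and the small subunit and are made in equal numbers for each ribosome, so the mRNAs are usually abundant and vary together. In vertebrates most of these mRNAs begin with a run of pyrimidines right at the transcription start, the terminal oligopyrimidine (TOP) motif, through which the kinase mTOR and the protein LARP1 control their translation. A few members have paralogues, such as Rpl22 and Rpl22l1 or Rps27 and Rps27l, that can take each other's place, and some ribosomal proteins are better known for work outside the ribosome: Rpl5 and Rpl11 bind the p53 inhibitor Mdm2, and Rpl13a takes part in silencing of inflammatory mRNAs after IFNg.

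Of the 86 members, 66 had an annotated start in the RefSeq table used here (GRCm38.p6). A run of at least 8 pyrimidines lay within the 30 bases centred on that start in 27 of them (40.91%), against 3733 of 26959 other genes (13.85%). The median longest run was 7 bases in the members and 5 in the other genes. Only the letters C and T on the transcribed strand were counted, in any order and with no other motif overlapping the search. The windows below are those with the longest runs and those of members to which the comparisons return, each written 5′ to 3′ with the longest pyrimidine run in capitals. Rpl7a at chr2:26910792-26910821 (plus strand) and Rpl27a at chr7:109519180-109519209 (plus) had long runs. Rpl22l1 at chr3:28805493-28805522 (plus), Rps27l at chr9:66946071-66946100 (plus), Rps24 at chr14:24490663-24490692 (plus), Rps6 at chr4:86857353-86857382 (minus), Rplp2 at chr7:141447636-141447665 (plus) and Rpl13a at chr7:45128731-45128760 (minus) had runs of 9 to 13. Rpsa at chr9:120127751-120127780 (plus) and Rps2 at chr17:24720048-24720077 (plus), which fell with time in WT cells, had shorter runs in this window.
Rpl7a: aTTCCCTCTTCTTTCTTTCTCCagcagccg
Rpl27a: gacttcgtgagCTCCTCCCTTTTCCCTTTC
Rpl22l1: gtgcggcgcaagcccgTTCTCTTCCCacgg
Rps27l: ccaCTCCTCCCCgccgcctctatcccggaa
Rps24: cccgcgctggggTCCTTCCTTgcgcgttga
Rps6: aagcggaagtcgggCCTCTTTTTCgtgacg
Rplp2: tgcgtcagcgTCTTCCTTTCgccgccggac
Rpl13a: gaaaccctgcgacaagaCCTCCTCCTTTCC
Rpsa: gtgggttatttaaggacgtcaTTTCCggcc
Rps2: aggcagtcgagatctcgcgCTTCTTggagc
A run in this window is a description of the letters at an annotated start and was not used to choose any gene. Rpl29, the member with the most calls below, was among the 20 members with no entry in this table.

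The members were short genes with many copies. Their principal transcripts had a median length of 836.5 bases, against 2547 over 21866 protein-coding genes. Of all 50-base windows in a member's transcripts, a median of 56.1% occurred nowhere else in the annotated transcripts. In 37 members less than 50% of the windows were unique, and 82 members shared a window with at least 1 annotated pseudogene. Reads that fit several places were dropped by the counting, so the level of a member understates its mRNA by an amount that depends on its copies, and levels were compared between members only per kilobase and with that limit. In WT day 3 cells the highest levels per kilobase were those of Rplp1 (1037 CPM per kb, where CPM is the counts of a gene scaled to the same total in each library), Rpl41 (789.5), Rps2 (700.9), Rpl8 (665.4) and Rplp0 (656.9). Rplp0 and Rplp1 code for proteins of the stalk, where the translation factors bind. The paralogues expressed in few tissues were near 0: Rpl3l, a muscle form of Rpl3, stood at 0.145, Rpl39l at 0.321, and Rpl10l, a testis form of Rpl10, at 0, with at most 1 count in any library. Rpl10l passed the count filter in no experiment. Rpl3l and Rps27rt did not pass it in the time course, on day 8 or in peritoneal macrophages, nor did Rpl24 on day 8 and in peritoneal macrophages or Rpl39l in peritoneal macrophages, which left 83, 82, 81, 85 and 85 members tested in the time course, the day 8, the peritoneal, the antibody and the set experiment.

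Counts on genes ran from 14419697 to 20220329 per library in the time course, 3614967 to 10498769 on day 8, 7625225 to 23381318 in peritoneal macrophages, 5295144 to 34380735 with the antibodies and 21492762 to 45564225 in the sets. H3f3a stood at 1.2 to 15.3 CPM in cKO libraries and 33.6 to 93.7 in WT. H3f3b was clearly lower in the cKO libraries of the antibody experiment, at 16.7 to 67.7 against 295 to 468. In the other BMDM experiments together it ranged from 148 to 325 in cKO and from 181 to 315 in WT. Untreated day 8 libraries held 173 and 187 in cKO and 205, 244 and 225 in WT. With IFNg these were 325 (replicate 1) and 236 in cKO and 311, 315 and 313 in WT. Peritoneal libraries held 302 to 360 in cKO and 354 to 535 in WT. The paper describes the deletion of H3f3b as variable between cKO samples. All 10 macrophage markers examined were detected in every group. The library cKO day 8 IFNg replicate 1 stood apart, with 57.1% of its reads unmapped, and results that rest on it are given with and without it. Levels below are in CPM after TMM scaling, and log2 changes are named by their direction with the standard error (SE). A gene is called where edgeR's quasi-likelihood test gave a Benjamini-Hochberg adjusted p below 0.05 over all genes tested.

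Together the 86 members took between 0.426% and 2.63% of all counts on genes. In cultured cells the time course libraries gave 1.39% to 1.81%, those of day 8 gave 0.868% to 1.97%, the antibody libraries 1.46% to 2.47% and the sets 1.42% to 2.63%. Peritoneal macrophages gave 0.426% to 0.67%, from libraries that the study's methods describe as made with another kit, so tissue and library preparation cannot be told apart in that gap. In bulk RNA, fewer cells of a type and less RNA per cell cannot be told apart either. Large-subunit genes drew 1.17 to 1.37 times the counts of small-subunit genes in every library but those of cKO day 8 IFNg replicate 1, where the ratio was 0.906.

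**Figure D1:**
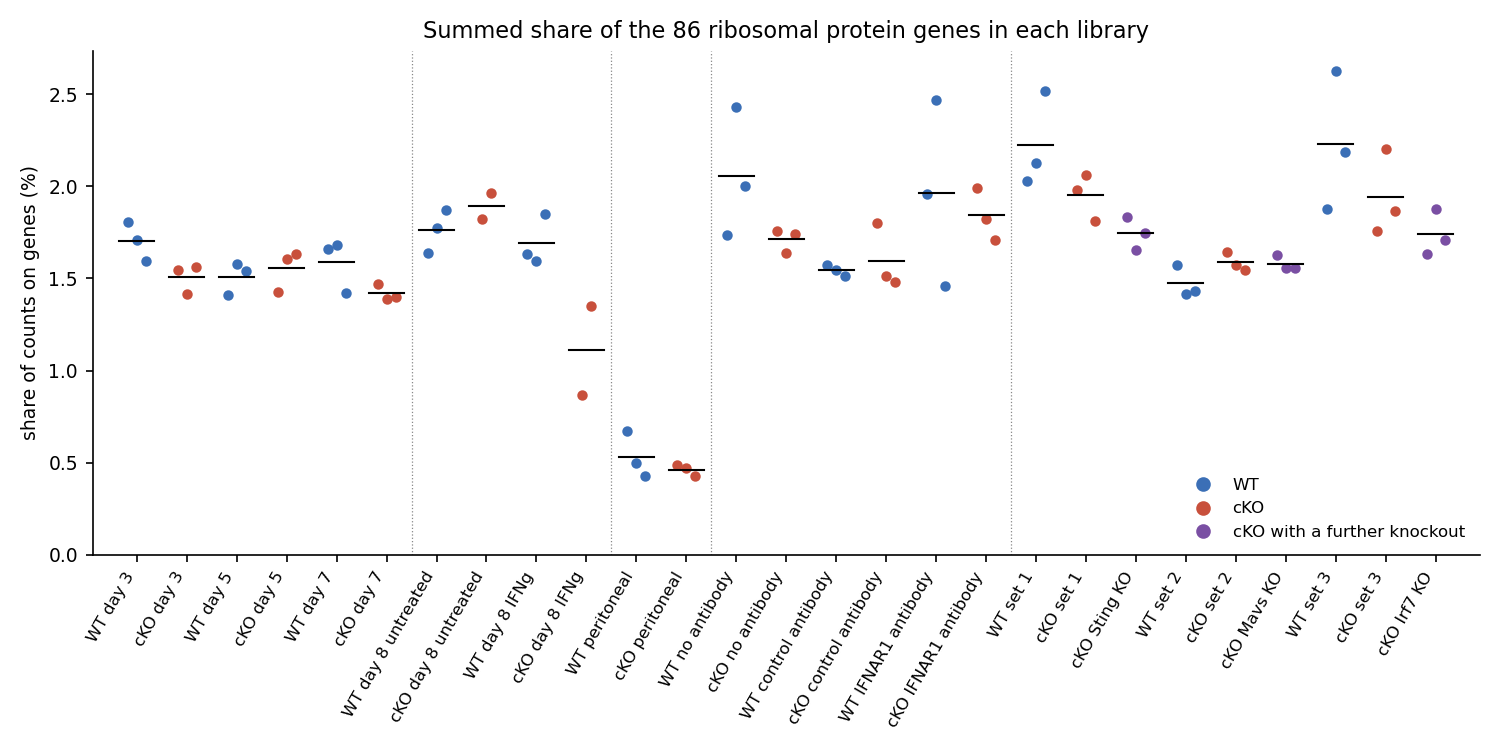
Share of the counts on genes that fell on the 86 ribosomal protein genes, in percent. Points are libraries and bars are group means. Peritoneal libraries lie between 0.426% and 0.67%, below all cultured groups, and the WT libraries without antibody, with the IFNAR1 antibody and of set 3 spread most widely.

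As a group these genes moved little in most comparisons. The median log2 change over the members lay between -0.53 and 0.53 in the 25 comparisons of group with group, while the median over all genes tested stayed between -0.05 and 0.04. The median of large-subunit genes and that of small-subunit genes differed by at most 0.09 in those comparisons. Of the 85 members tested in any experiment, 51 (60%) were called in at least 1 of the 28 comparisons made, against 71.3% of 19327 genes tested, and without Rps10 and Rpl24, whose counts depend on the annotation of overlapping genes, 49 of 83 were. Rpl29 was called most often, 10 times, then Rpl22l1 7 times, and Rpl39, Rpl41 and Rpl21 4 times each. The remaining calls were spread over many members. Rplp0, Rplp1, Rplp2, Rpl5, Rpl11 and Rps19 were called in none.

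**Figure D2:**
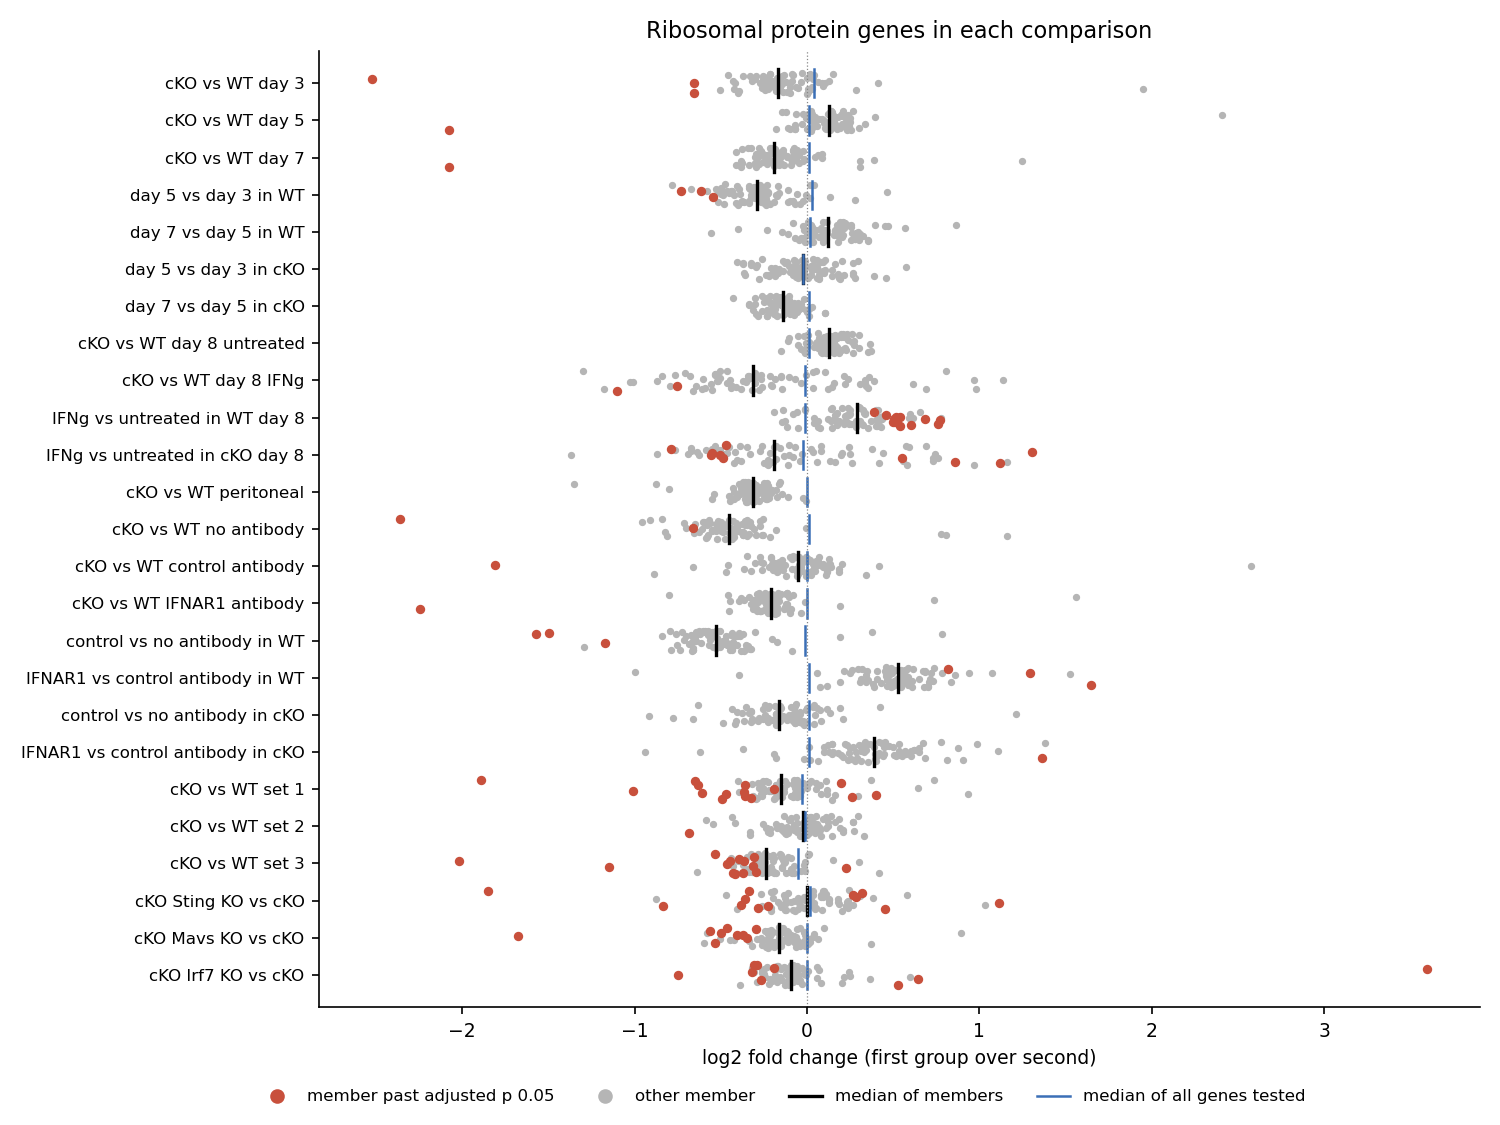
Log2 change of each ribosomal protein gene (points) in each of 25 comparisons of group with group. Red points passed an adjusted p of 0.05, black bars are the medians of the members and blue bars the medians of all genes tested. The black bars stay within -0.53 and 0.53, and the lone low red points of the cKO against WT comparisons are mostly Rpl29.

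Rpl29 codes for a small basic protein of the large subunit that also binds heparin. The gene lies at chr9:106429454-106431568 on the plus strand of mm10, and 33.8% of its 50-base windows were unique. On day 3 its level was 94.3, 125 and 124 CPM in the WT libraries and 19.5, 15.9 and 24.2 CPM in the cKO libraries. On day 5 the WT libraries held 63.9, 108 and 107 CPM and the cKO libraries 24.1, 19.6 and 22.4 CPM. On day 7 the values were 79.5, 110 and 95.7 CPM in WT and 24.6, 20.5 and 22.4 CPM in cKO. Every cKO library of these days was far below every WT library, and the cKO level hardly moved from day to day. The difference of cKO minus WT was -2.52 ± 0.21 (SE, 5.75-fold lower) on day 3 (edgeR's quasi-likelihood test, adjusted p = 9.23e-06). It was -2.08 ± 0.21 on day 5 (adjusted p = 7.51e-05) and -2.08 ± 0.21 on day 7 (adjusted p = 9.07e-05).

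The same gene was low in cKO BMDMs of the antibody experiment, whatever the antibody. WT libraries without antibody held 113, 177 and 81.2 CPM of Rpl29, and cKO libraries 25.9, 22.1 and 24.5 CPM. With the control antibody the values were 95.3, 107 and 59.8 CPM in WT against 27.2, 25.6 and 21.8 CPM in cKO. With the IFNAR1 antibody they were 145, 230 and 53.3 CPM against 34.2, 28.8 and 26.9 CPM. The WT and cKO libraries did not overlap in any arm. The log2 differences were -2.36 ± 0.40 (adjusted p = 0.00298), -1.81 ± 0.39 (adjusted p = 0.0143) and -2.25 ± 0.40 (adjusted p = 0.0129) by edgeR's quasi-likelihood test, and the calls with the control and with the IFNAR1 antibody each held in 9 of 13 alternative settings.

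The cKO libraries of day 8 and of set 2 did not show a called difference. On day 8 the untreated WT libraries held 42.5, 77.3 and 85.0 CPM of Rpl29 and the untreated cKO libraries 81.4 and 59.2 CPM, which overlap, and the difference was 0.04 ± 0.31. After IFNg the WT values were 63.3, 99.5 and 95.0 CPM and the cKO values 39.8 and 57.3 CPM, a log2 difference of -0.79 ± 0.32 that did not pass (adjusted p = 0.17). The sets differed among themselves. In set 1 Rpl29 stood at 136, 142 and 109 CPM in WT and 35.01, 35.1 and 34.2 CPM in cKO, and in set 3 at 113, 151 and 80.1 CPM against 25.2, 33.1 and 26.9 CPM. In set 2 it stood at 139, 116 and 121 CPM in WT and 73.5, 70.3 and 106 CPM in cKO, so that cKO libraries of set 2 lay between the other cKO libraries and WT. The log2 differences were -1.89 ± 0.29 in set 1 (adjusted p = 1.45e-05), -2.02 ± 0.29 in set 3 (adjusted p = 6.53e-06) and -0.59 ± 0.27 in set 2 (adjusted p = 0.141).

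**Figure D3:**
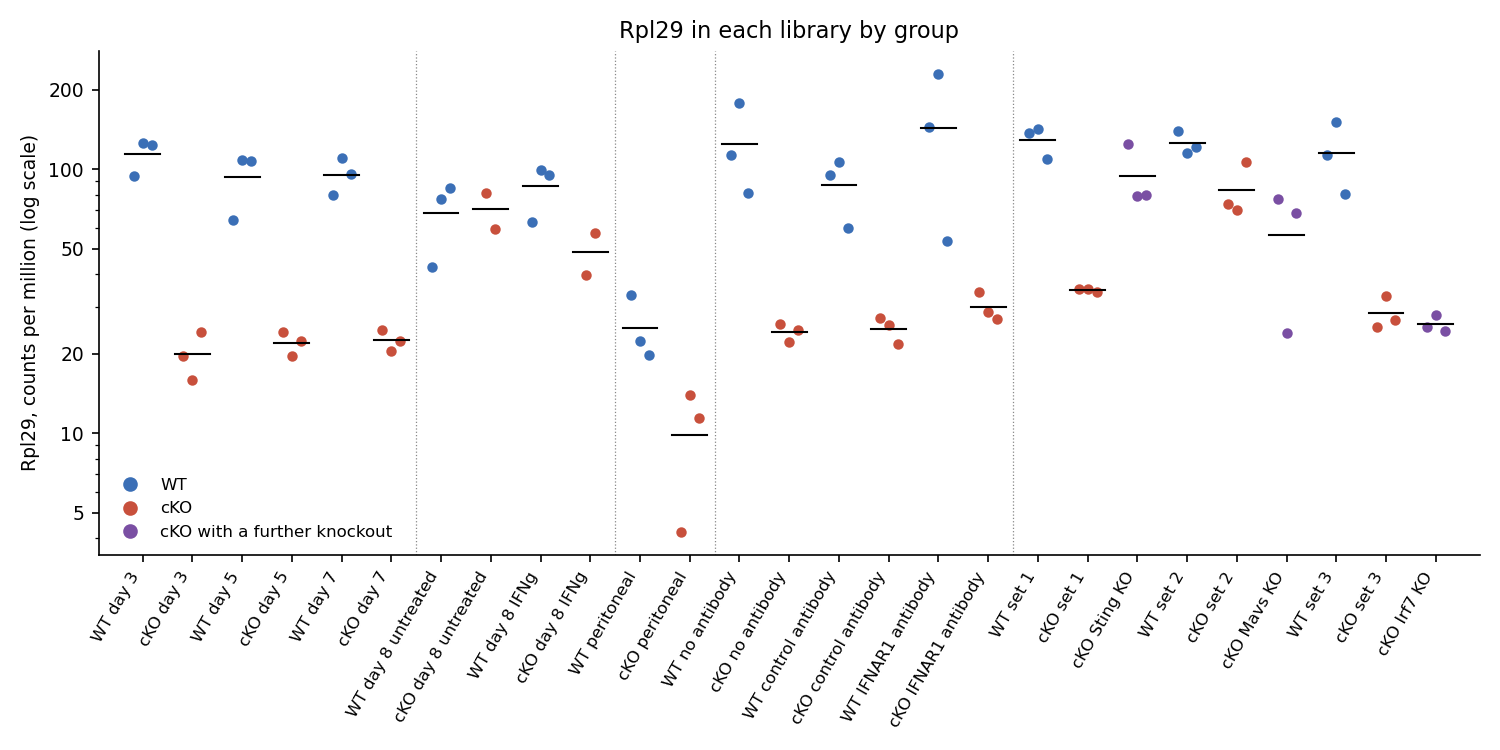
Level of Rpl29 in CPM on a log axis, by group, with 1 point for each library. cKO libraries of days 3 to 7, of the antibody arms and of sets 1 and 3 sit at 15.9 to 35.1, apart from their WT libraries, whereas the untreated day 8 groups overlap.

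Genes close to Rpl29 on chromosome 9 were examined over 250 kb on each side, a window chosen after the Rpl29 values were seen, in which 14 genes including Rpl29 were tested (13 on day 8). Abhd14a starts 18.2 kb, Abhd14b slightly nearer and Pcbp4 23.8 kb from the start of Rpl29, and Dusp7 lies 60.8 kb before it. On day 3 Pcbp4, which codes for an RNA-binding protein, changed by -2.37, Abhd14b by -2.06, Abhd14a by -1.60 and Dusp7, a phosphatase of MAP kinases, by -1.15 in cKO, and all were called. With Rpl29 these were the 5 called lower of 14, and Tlr9, a sensor of DNA, was called higher (2.45), where 7.73% of all genes were called. In set 1 Pcbp4 changed by -3.27, Abhd14b by -1.86 and Abhd14a by -1.81, and in set 3 by -3.07, -1.64 and -1.86, again all called. In each of these sets 7 of the 14 genes were called lower and 1 higher, which was Rrp9 (0.72 and 0.99), where 34.7% and 34.9% of all genes were called. None of the 13 genes was called in untreated day 8 cells, where Pcbp4 changed by -0.18, Abhd14b by 0.06, Abhd14a by -0.01 and Dusp7 by 0.12. In set 2 only Pcbp4 of these was called, at -0.89. Pcbp4 was called lower in 8 of the 8 comparisons of cKO with WT in which Rpl29 was.

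**Figure D4:**
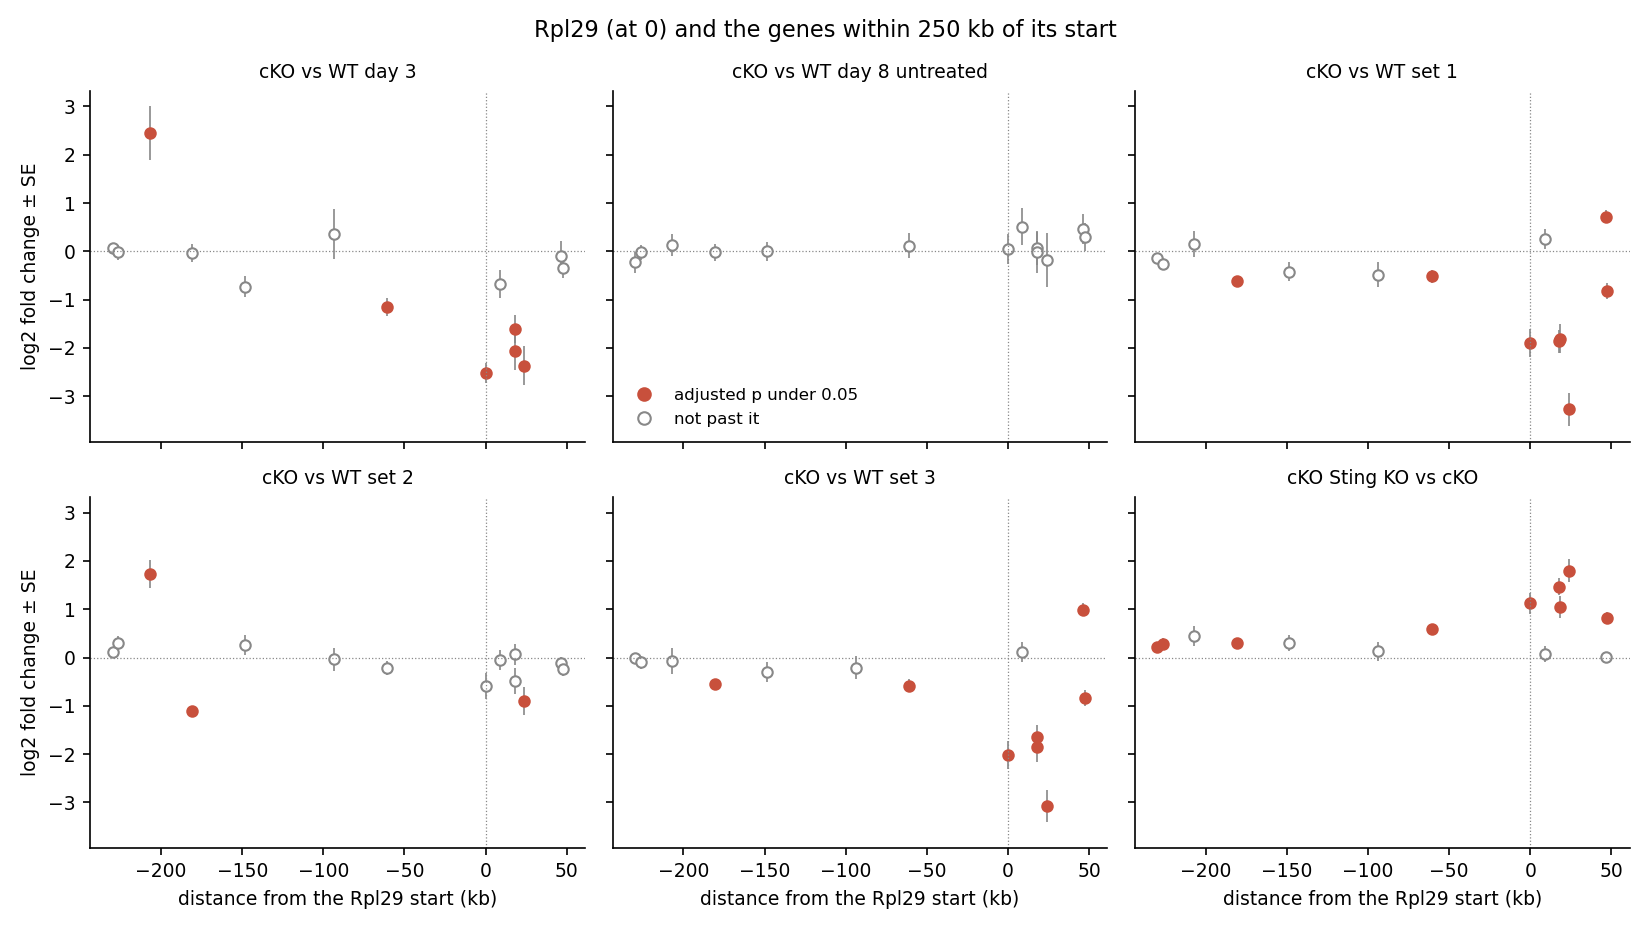
Log2 change ± SE of each tested gene against the distance of its start from that of Rpl29, in kb, in 6 comparisons. Filled points passed an adjusted p of 0.05. Rpl29, Abhd14b, Abhd14a and Pcbp4 dip together in cKO on day 3 and in sets 1 and 3, lie near 0 in untreated day 8 cells, and rise together in the Sting knockout.

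Beside Rpl29, day 3 cells showed few single changes. The share of counts on the members was 1.70% ± 0.108 (SD, n = 3) in WT and 1.51% ± 0.0811 (n = 3) in cKO. Of 83 members, 0 were called higher and 3 lower in cKO, where the test called 7.73% of all genes (5.2% higher, 2.54% lower), and 66 of 83 log2 changes were negative with a median of -0.17. Rps27l, a paralogue of Rps27 that p53 induces, stood at 96.2, 72.7 and 67.1 CPM in WT and 50.7, 43.4 and 55.4 CPM in cKO, with no overlap. It fell by 0.66 ± 0.15 on the log2 scale (edgeR's quasi-likelihood test, adjusted p = 0.0146). With the replicate numbers as a block 1 member was called higher and 2 lower. There Rpl39l, at 0.136, 0.527 and 0.112 CPM in WT and 1.19, 1.30 and 0.627 CPM in cKO, was called higher (2.02 ± 0.59, adjusted p = 0.0458). Members with no overlap between the groups numbered 15 lower and 1 higher, against 15.8% and 18.3% of all genes. Without WT day 3 replicate 1, or without cKO day 3 replicate 2, only Rpl29 was called.

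On days 5 and 7 Rpl29 was the only member called, with 2.83% and 1.4% of all genes called. The medians of the members were 0.13 on day 5, with 69 positive and 14 negative changes, and -0.19 on day 7, with 8 positive and 75 negative. Members with no overlap numbered 25 higher and 2 lower on day 5, where 15.4% and 11.1% of all genes did the same, and 0 higher and 3 lower on day 7 (9.5% and 7.09%). The test of the change of the cKO effect from day 3 to day 7 called 0 members by edgeR's quasi-likelihood test and by DESeq2, with 1 at an unadjusted p under 0.05, where 0.0439% of all genes were called. Genes of interferon response moved far more in the same cells on day 3, where 25 of 25 listed genes were called higher with a median of 5.56. Markers of myeloid progenitors summed to 483 to 811 CPM in WT day 3 libraries and 890 to 1284 CPM in cKO day 3 libraries, with 10 of 10 markers detected, and their part in these values was not tested.

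A few members fell with time in WT cells. Rpsa, the laminin-binding protein of the small subunit, stood at 586, 517 and 537 CPM on day 3 and 335, 374 and 362 CPM on day 5. Rps2 stood at 811, 738 and 752 CPM on day 3 and 401, 495 and 491 CPM on day 5, and Rps3a1 at 254, 214 and 208 CPM and then 143, 166 and 154 CPM. Each of the day 5 libraries lay below each of the day 3 libraries. The changes were -0.61 ± 0.13 for Rpsa (edgeR's quasi-likelihood test, adjusted p = 0.0248), -0.73 ± 0.18 for Rps2 (adjusted p = 0.0471) and -0.54 ± 0.11 for Rps3a1 (adjusted p = 0.0229). These were 3 of 83 members, with 0 higher, where 2.64% of all genes were called (0.602% higher and 2.04% lower). The median of the members was -0.29, and 45 members were lower on day 5 with no overlap, against 17.9% of all genes. The 3 calls were lost when any 1 of the 6 libraries was left out, which gave 0 calls each time, whereas DESeq2 called 12.

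Later and in cKO cells no member was called with time. From day 5 to day 7 the median was 0.12 in WT (0 calls by edgeR's quasi-likelihood test, 0 by DESeq2, 6 members at an unadjusted p under 0.05, 0.238% of all genes called). In cKO it was -0.02 from day 3 to day 5 (0 calls by either tool, 6 members at an unadjusted p under 0.05, 3.59% of all genes) and -0.14 from day 5 to day 7 (0 by either tool, 3 at an unadjusted p under 0.05, 0.0564% of all genes). Rpsa in cKO went from 520, 475 and 456 CPM on day 3 to 414, 412 and 439 CPM on day 5, and Rps2 from 730, 648 and 548 CPM to 585, 447 and 458 CPM, where the groups overlap for Rps2. Without WT day 7 replicate 3, 3 members were called higher on day 7 than on day 5 in WT.

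Untreated day 8 macrophages showed no called member. The share was 1.76% ± 0.117 (SD, n = 3) in WT and 1.82% and 1.97% in the cKO libraries. The median change was 0.13, with 71 positive and 11 negative changes. edgeR's quasi-likelihood test called 0 of 82 members, DESeq2 called 0, and 0 had an unadjusted p under 0.05, while 0.612% of all genes were called. With no overlap, 17 members were higher and 0 lower in cKO, against 18% and 13.9% of all genes.

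After 12 hours of IFNg in WT macrophages, 12 of 82 members rose and 0 fell. This share was below that of all genes, of which 40.1% were called (20% higher and 20.1% lower). Rps24, a small-subunit protein whose gene is mutated in Diamond-Blackfan anaemia, stood at 201, 226 and 237 CPM without and 342, 366 and 423 CPM with IFNg. Rps20 stood at 183, 211 and 215 CPM and then 331, 314 and 386 CPM, and Rpl41, which codes for the smallest ribosomal protein, at 259, 302 and 311 CPM and then 427, 405 and 569 CPM. All IFNg libraries lay above all untreated libraries for these genes. The changes were 0.77 ± 0.14 for Rps24 (edgeR's quasi-likelihood test, adjusted p = 0.0018), 0.76 ± 0.19 for Rps20 (adjusted p = 0.00922) and 0.68 ± 0.22 for Rpl41 (adjusted p = 0.0303).

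Rpl23a (0.60 ± 0.16), Rps12 (0.54 ± 0.16) and the paralogue Rpl22l1 (0.39 ± 0.14, adjusted p = 0.0495, and 0.0824 with the replicate numbers as a block) were also among those called by edgeR's quasi-likelihood test. Rps24 and Rps20 kept their calls in 13 of 13 alternative settings. The count fell to 2 when either WT untreated replicate 1 or WT IFNg replicate 3 was left out, and the median then went from 0.29 to 0.19 and 0.2. Rpl13a, known for its release from the ribosome after IFNg, was not called (9.74, 11.8 and 8.995 CPM without and 12.8, 10.5 and 14.8 CPM with IFNg). On the same TMM scale, genes of ribosome biogenesis, the nucleolar factors that build ribosomes, moved the other way in the same cells. Of 46 such genes 30 were lower and 1 higher, with a median of -0.70. Myc, a transcription factor that drives this programme, changed by -2.36 ± 0.49 and the processing factor Nolc1 by -1.79 ± 0.32. Translation factors with TOP mRNAs had a median of 0.06, with 0 of 25 higher and 4 lower, and 9 mitochondrial ribosomal protein genes of 77 rose and 2 fell.

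In cKO macrophages members were called in both directions after IFNg. Of 82 members, 4 rose and 6 fell, with a median of -0.19, where 33.6% of all genes were called (17.2% higher and 16.4% lower). Rps24 stood at 218 and 246 CPM without and 319 and 359 CPM with IFNg, and Rps20 at 236 and 250 CPM without and 551 and 331 CPM with it. They rose by 0.55 ± 0.17 (edgeR's quasi-likelihood test, adjusted p = 0.0344) and 0.86 ± 0.23 (adjusted p = 0.0176). Rpl4, Rpl21, Rps13, Rpl10a and Rpl22 were among those that fell, with changes from -0.47 ± 0.15 for Rpl22 to -0.79 ± 0.25 for Rps13. These counts rest on cKO IFNg replicates that did not resemble each other: Rps4x stood at 1251 and 431 CPM in them, and Rpl37a at 560 and 148 CPM. Without IFNg replicate 1, 2 members rose and 8 fell. Without IFNg replicate 2 these counts were 19 and 31, and without either untreated replicate 0 were called.

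Between the genotypes after IFNg, 0 members were called higher and 2 lower in cKO, where 4.83% of all genes were called (3.2% higher and 1.63% lower). Rpl21 stood at 117, 127 and 126 CPM in WT and 61.5 and 83.2 CPM in cKO (-0.75 ± 0.16, adjusted p = 0.0277 by edgeR's quasi-likelihood test). Rpl13a stood at 12.8, 10.5 and 14.8 CPM in WT and 3.61 and 6.93 CPM in cKO (-1.10 ± 0.27, adjusted p = 0.0485). Both cKO libraries were lower than every WT library for both genes, and 38 members were lower with no overlap, against 18.7% of all genes. Without cKO IFNg replicate 1 the count was 5 lower, without replicate 2 it was 14 higher and 39 lower, and without any 1 of the WT IFNg libraries it was 0. The test of whether IFNg acted differently in cKO called 0 members by edgeR's quasi-likelihood test and 0 by DESeq2, with 14 at an unadjusted p under 0.05 and 0% of all genes called, and the members' median was -0.44. Without cKO IFNg replicate 2 that test called 8 higher and 37 lower.

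In peritoneal macrophages every one of the 81 tested members was lower in cKO on average, yet none was called. The median was -0.31 and the share was 0.531% ± 0.125 (SD, n = 3) in WT and 0.460% ± 0.0302 (n = 3) in cKO. WT replicate 1, at 0.67%, held the highest share of the 6 libraries, and without it the median was -0.10. Without WT replicate 3 the median was -0.48. Rplp0 shows the pattern, with 356, 287 and 278 CPM in WT and 279, 275 and 237 CPM in cKO, where the first WT library stood far above the rest. edgeR's quasi-likelihood test called 0, DESeq2 called 1, and 3 had an unadjusted p under 0.05, with 0.971% of all genes called. With no overlap, 13 members were lower and 0 higher, against 6.5% and 8.47%. Rpl29 stood at 33.2, 22.2 and 19.7 CPM in WT and 4.23, 13.97 and 11.4 CPM in cKO, a change of -1.35 ± 0.41 that did not pass (adjusted p = 0.278). Mitochondrial ribosomal protein genes had a median of -0.17, with 0 of 77 called.

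In the antibody experiment, cKO cells without antibody again had lower levels of most members. The median was -0.45, with 82 of 85 changes negative, and the shares were 2.06% ± 0.349 (SD, n = 3) in WT and 1.71% ± 0.0655 (n = 3) in cKO. Rpl29 and Rps27l were called lower and 0 members higher, where 7.09% of all genes were called (3.39% higher and 3.71% lower). Rps27l stood at 68.3, 108 and 78.6 CPM in WT and 55.2, 55.4 and 50.7 CPM in cKO, with no overlap (-0.66 ± 0.19, adjusted p = 0.0418 by edgeR's quasi-likelihood test). The spread among the WT libraries was wide, since WT replicate 2 was the highest of the 3 for 82 members: Rpl3 stood at 240, 420 and 297 CPM in WT and 254, 222 and 200 CPM in cKO. Without WT replicate 2 the median was -0.22 with 1 member called, and without WT replicate 1 it was -0.62 with 9. With the control antibody the median of cKO minus WT was -0.05 and with the IFNAR1 antibody -0.21, values that turned to 0.02 without cKO control antibody replicate 3 and to 0.13 without WT IFNAR1 antibody replicate 2. Rpl29 was the 1 member called in each, where 4.45% and 0.675% of all genes were called.

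Some members were lower with the control antibody than without antibody in WT cells. Rpl22l1, the paralogue of Rpl22, stood at 12.8, 19.7 and 16.6 CPM without antibody and 6.43, 4.75 and 6.31 CPM with the control antibody. Rpl3, which lies at the peptidyl transferase centre, stood at 240, 420 and 297 CPM and then 165, 122 and 138 CPM, and Rpl36al at 2.12, 3.43 and 3.19 CPM and then 1.19, 0.905 and 0.823 CPM. For each gene all libraries with the control antibody lay below all those without. The changes were -1.49 ± 0.32 (adjusted p = 0.0144), -1.17 ± 0.31 (adjusted p = 0.0323) and -1.57 ± 0.36 (adjusted p = 0.0186) by the quasi-likelihood test of edgeR. These 3 calls of 85 members, with 0 higher, stood beside 8.9% of all genes (3.27% higher and 5.63% lower), and with the replicate numbers as a block 5 members were called lower. The median of the members was -0.53 and 48 were lower with no overlap, against 20.6% of all genes.

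With the IFNAR1 antibody in place of the control antibody the WT levels of Rpl22l1 were 19.9, 26.1 and 8.69 CPM, those of Rpl3 were 332, 530 and 182 CPM and those of Rpl10a were 168, 254 and 113 CPM, against 118, 89.7 and 96.0 CPM of Rpl10a with the control antibody. IFNAR1 replicate 3 lay nearest to the control antibody libraries each time, and was the lowest of the 3 for 80 members. The changes were 1.65 ± 0.32 for Rpl22l1 (adjusted p = 0.00662), 1.29 ± 0.31 for Rpl3 (adjusted p = 0.0193) and 0.82 ± 0.25 for Rpl10a (adjusted p = 0.0481) by edgeR's quasi-likelihood test. The median of the members was 0.53, with 83 of 85 changes positive, 3 called higher and 0 lower, where 9.89% of all genes were called (6.83% higher and 3.06% lower). Both of these comparisons use the same 3 WT control antibody libraries, so their opposite signs are not independent. Leaving out WT IFNAR1 replicate 3 raised the calls to 72 higher and 1 lower, and leaving out WT no antibody replicate 1 raised those of the control antibody to 17 lower, whereas 0 were left without WT control antibody replicate 2.

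**Figure D5:**
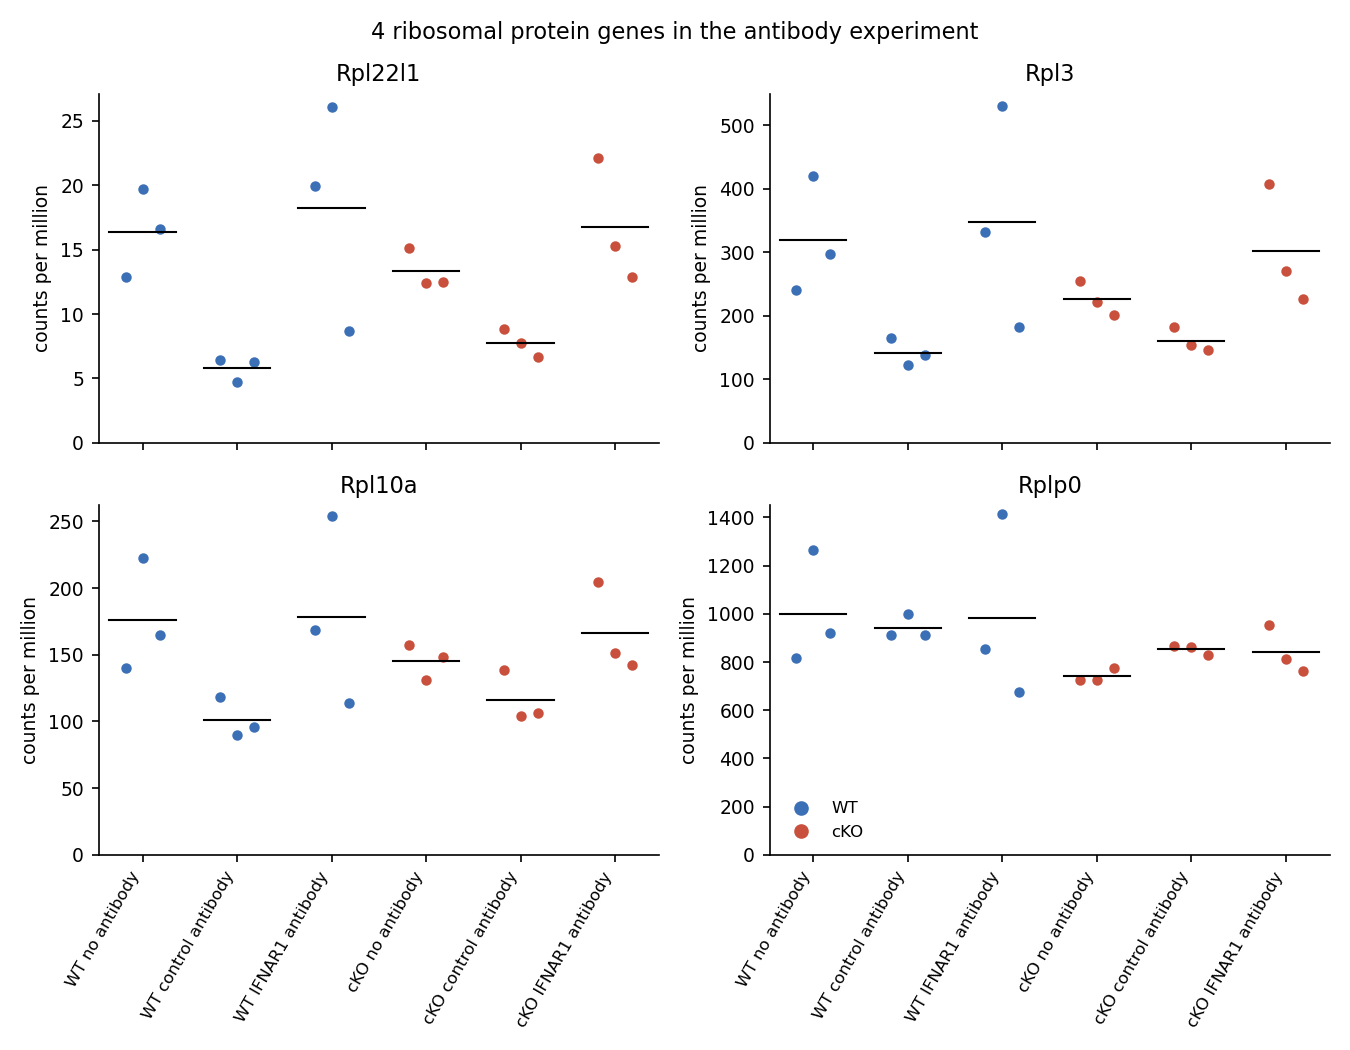
Levels of Rpl22l1, Rpl3, Rpl10a and Rplp0 in CPM in the 6 groups of the antibody experiment, with 1 point for each library and bars at the means. Rpl22l1 and Rpl3 are low in both control antibody groups, whereas the means of Rplp0 lie close together, and the WT IFNAR1 group spreads widely, with replicate 2 the highest and replicate 3 the lowest in all 4 genes.

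In cKO cells fewer members were called between the antibody arms. From no antibody to control antibody the median was -0.16, and 0 of 85 members were called by edgeR's quasi-likelihood test and 0 by DESeq2, with 2 at an unadjusted p under 0.05, where 1.46% of all genes were called. From control to IFNAR1 antibody the median was 0.39, with 1 member called higher and 0 lower beside 4.03% of all genes (2.34% higher and 1.69% lower), and 31 members were higher with no overlap against 14%. Without cKO control antibody replicate 2 or 3, or without cKO IFNAR1 replicate 1, no member was called. Rpl22l1 went from 8.82, 7.76 and 6.63 CPM to 22.1, 15.3 and 12.8 CPM, which did not overlap but did not pass (1.11 ± 0.32, adjusted p = 0.0642). The test of whether the antibodies acted differently in WT and cKO called 0 members by either tool, with 0 at an unadjusted p under 0.05 and 0% of all genes called.

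Proliferation genes moved with the members across the antibody arms. Their summed level was 1724 to 1971 CPM in WT without antibody, 492 to 955 CPM with the control antibody and 1655 to 3919 CPM with the IFNAR1 antibody, with 25 of 25 detected. In cKO it was 1137 to 1756, 463 to 769 and 971 to 2264 CPM. Of 25 such genes, 17 were called lower with the control antibody in WT and 22 higher with the IFNAR1 antibody in place of it. The TOP translation factors, among them elongation factors, had medians of -0.51 (0 of 25 higher, 2 lower) and 0.51 (4 higher, 0 lower) in the same comparisons, and the biogenesis genes 0.43 and -0.45. Stromal markers summed to 256 to 471 CPM in cKO control antibody libraries and 62.3 to 120 CPM in cKO IFNAR1 antibody libraries, with 9 of 10 detected in each and Lum at 0. The part of these in the levels of the members was not tested.

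The 3 sets of WT and cKO BMDMs gave unlike counts. In set 1, 3 of 85 members rose and 12 fell, with a median of -0.15, where 34.7% of all genes were called (18% higher and 16.7% lower). In set 3, 1 rose and 13 fell (median -0.24, 34.9% of all genes called, 16.9% higher and 18% lower), and in set 2, 0 rose and 1 fell (median -0.02, 21% of all genes called, 9.74% higher and 11.3% lower). Rpl22l1 was called lower in all of them, in set 2 as the only member, and that call was lost with the strand column and without WT set 2 replicate 1, cKO set 2 replicate 1 or cKO set 2 replicate 3. It stood at 20.5, 24.1 and 23.1 CPM in WT and 10.8, 12.2 and 10.7 CPM in cKO of set 1. In set 2 it stood at 13.8, 10.2 and 9.38 CPM against 6.73, 9.21 and 4.86 CPM, and in set 3 at 20.4, 38.02 and 27.3 CPM against 9.39, 15.7 and 13.6 CPM. No set had overlapping libraries, although the highest cKO library of set 2 came close to the lowest WT library.

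The log2 changes of Rpl22l1 were -1.01 ± 0.22 (adjusted p = 0.0008), -0.68 ± 0.22 (adjusted p = 0.0283) and -1.15 ± 0.22 (adjusted p = 0.000186) by the quasi-likelihood test of edgeR. Its partner Rpl22 was called in no set, and the difference between the paralogues was not tested. Outside the sets Rpl22l1 was not called between the genotypes. Its log2 change was 0.41 ± 0.22 on day 3, 0.16 ± 0.21 on day 5, -0.20 ± 0.21 on day 7 and -0.03 ± 0.16 in untreated day 8 cells. After IFNg it was -0.55 ± 0.17 (adjusted p = 0.0928 by edgeR's quasi-likelihood test), and in peritoneal macrophages -0.16 ± 0.40. With the control antibody every cKO library held more Rpl22l1 than every WT library, opposite to the sets, and with the IFNAR1 antibody the genotypes overlapped. Other members that fell in both set 1 and set 3 were Rpl41 (-0.63 ± 0.18 and -0.53 ± 0.18), Rpl13a (-0.47 and -0.46) and Rps9, Rpl34 and Rpl10. Rps14, a small-subunit protein whose loss is known from a myelodysplastic syndrome, stood at 467, 476 and 805 CPM in WT and 349, 394 and 370 CPM in cKO of set 1 (-0.65 ± 0.17, adjusted p = 0.00476), and WT replicate 3 set the width of that gap.

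The member that rose in both was Rpl7l1, a paralogue of Rpl7 that works in ribosome assembly, with 0.20 ± 0.07 in set 1 and 0.23 ± 0.07 in set 3. The counts moved with single libraries. Without WT set 1 replicate 3, 3 members rose and 2 fell in set 1. In set 3 the counts were 0 and 44 without WT replicate 1, 0 and 40 without cKO replicate 2, and 3 and 3 without WT replicate 2, which held the highest share of that set (2.63%). Biogenesis genes rose together in sets 1 and 3, with 40 and 41 of 46 called higher and medians of 0.78 and 0.77, and not in set 2, with 2 higher, 7 lower and a median of -0.09. Progenitor markers summed to 18.1 to 36.2 CPM in the WT libraries of the sets and 85.1 to 201 CPM in the cKO libraries, 10 of 10 detected, and their part was not tested.

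BMDMs labelled as cKO with a knockout of Sting, Mavs or Irf7 were compared with all 9 cKO libraries of the sets, since the labels do not tie a knockout to a set. Differences between the sets therefore enter these comparisons and cannot be told apart from the knockouts in them. The counts against each set alone follow below. The annotation used for Irf7 KO and set 3 listed 54146 genes, whereas that for sets 1 and 2, Sting KO and Mavs KO listed 55536. Tmem173, the gene for STING, stood at 5.0 to 6.1 CPM in the Sting KO libraries against 68 to 92 in cKO, and Irf7 at 98 to 112 CPM in the Irf7 KO libraries against 248 to 470. Mavs stood at 37.1 to 37.8 CPM in the libraries labelled Mavs KO and 36.0 to 51.6 CPM in cKO, so its level over the whole gene did not check those labels. The paper itself reports the deletion by genomic PCR, by qRT-PCR and by RNA-seq tracks over the deleted Mavs exons. In Sting KO cells 5 of 85 members rose and 7 fell (median 0.00, 36.1% of all genes called, 18.9% higher and 17.2% lower), in the libraries labelled Mavs KO 0 rose and 9 fell (median -0.16, 8.79%, 5.55% higher and 3.24% lower), and in Irf7 KO cells 3 rose and 6 fell (median -0.09, 9.85%, 4.36% higher and 5.5% lower). Rpl29 was at 124, 78.8 and 79.7 CPM in Sting KO, above every cKO library of sets 1 and 3 but overlapping those of set 2. Against all cKO libraries together Rpl29 was higher by 1.12 ± 0.21 (adjusted p = 0.000277 by edgeR's quasi-likelihood test). Its neighbours Pcbp4 (1.80), Abhd14b (1.47), Abhd14a (1.04) and Dusp7 (0.59) were called higher in the same libraries.

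In the libraries labelled Mavs KO, Rpl29 stood at 77.0, 23.9 and 68.4 CPM, which spans both levels seen in cKO libraries (0.37 ± 0.22, adjusted p = 0.35). In Irf7 KO it stood at 25.1, 28.1 and 24.4 CPM and was called lower (-0.75 ± 0.24, adjusted p = 0.0485), against set 3 alone by -0.13. Rpl39, a small protein at the exit tunnel, fell with the labelled Mavs KO (-0.56 ± 0.13, adjusted p = 0.00552) and rose with Irf7 KO (0.53 ± 0.12, adjusted p = 0.00561) against all cKO libraries, but its log2 change was 0.005 in the labelled Mavs KO against set 2 alone and -0.198 in Irf7 KO against set 3 alone. The counts depended on the reference: against set 1, set 2 or set 3 alone, the members higher and lower were 1 and 10, 17 and 1, and 3 and 13 for Sting KO, 0 and 20, 0 and 0, and 1 and 15 for the labelled Mavs KO, and 2 and 16, 11 and 3, and 0 and 0 for Irf7 KO.

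Rps10, a small-subunit protein, had the largest calls among these knockouts, at -1.85, -1.68 and 3.60 for Sting, Mavs and Irf7, and these went with the gene annotation. The files of 36 libraries (the time course, sets 1 and 2, Sting KO and Mavs KO) listed a read-through gene, RPS10-NUDT3, that overlaps Rps10. In those files Rps10 had 2.22 to 9.11 CPM, against 106.3 to 257 in the other 39 BMDM libraries, a gap with no overlap. Rpl24, whose exons share 47% of their bases with the gene Gm28037, was near 0 in all files. Other members also share exon bases with other genes, among them Rpl35 (66.2%), Rpl23a (62.3%) and Rpl13a (35.4%). The part of this in their counts was not tested. The knockout comparisons mix both kinds of file, so the changes of Rps10 there cannot be told apart from the annotation. Without Rps10 and Rpl24 the members higher and lower were 5 and 5 for Sting KO, 0 and 8 for the labelled Mavs KO and 2 and 6 for Irf7 KO.

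The stalk proteins and the members with known roles outside the ribosome gave few calls. Rplp0, used widely as a reference gene, ranged in log2 change from -0.48 ± 0.15 (day 5 against day 3 in WT, adjusted p = 0.0961) to 0.21 ± 0.21 (control against no antibody in cKO, adjusted p = 0.864) over the 25 comparisons. Rpl5 ranged from -0.55 to 0.46 and Rpl11 from -0.54 to 0.56, with the extremes of both in the WT antibody arms and 0 calls by edgeR's quasi-likelihood test. Rps6, whose phosphorylation is read as a sign of mTOR activity, was called once, lower in Irf7 KO (-0.32, adjusted p = 0.0498), and Rps27a, which is made as a fusion with ubiquitin, once, lower in cKO of set 3 (-0.44 ± 0.14, adjusted p = 0.0162). Rpl39l, the paralogue of Rpl39, had a few counts per library and its largest difference, 2.58 ± 0.85 in cKO with the control antibody, did not pass (adjusted p = 0.111). Rps19bp1, the gene that is no ribosomal protein gene, was called in no comparison.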

How the data were processed

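RNA from 81 libraries was purified and depleted of ribosomal RNA before library preparation, per the labels, while the study's methods describe another kit for peritoneal macrophages. The authors trimmed reads with Cutadapt and aligned them with STAR to mm10 (versions not given in the sources used here), and deposited STAR counts of reads per gene for each library. Reads that aligned to several places were not counted by STAR, which leaves ribosomal protein genes undercounted by an amount set by their copies. The unstranded counts were used as deposited, since the columns for the separate strands held nearly equal totals. Rows that name no gene were kept out of library sizes: unmapped (1.69% to 57.1% of reads), multimapping (5.82% to 17.5%), no feature (3.76% to 28.9%) and ambiguous (3.16% to 6.23%).

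Each experiment was fitted with edgeR 4.0.16 in R 4.3.3 (TMM scaling, genes kept by filterByExpr with a minimum count of 10 and a minimum total of 15, glmQLFit and glmQLFTest, all groups of the experiment in 1 model, Benjamini-Hochberg over all genes tested, threshold 0.05). The standard error of a log2 change was its size divided by the square root of F. Precision follows depth, from 3614967 to 45564225 counts on genes per library. Tables were normalized separately, so tests stayed within an experiment. Sequences of transcription starts came from RefSeq on GRCm38.p6, and 50-base windows from the annotated transcripts.

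Members and gene lists were chosen with earlier results of these data known. Members named were a fixed set (stalk proteins, Rpsa, Rpl3, Rps6, Rpl5, Rpl11, Rpl13a, Rps19, Rps27a, paralogues, Rps19bp1) and, for each comparison, up to 5 called higher and 5 called lower with the largest change. Replicate pairs differed by more than sampling noise (lowest chi-square per degree of freedom 3.67 over 77 pairs), so none was counted as 1 sample. Same-numbered libraries deviated together, with every correlation over 0.1, in 6 comparisons: cKO with WT on day 3 (0.126 to 0.419), on day 7 (0.153 to 0.467) and in peritoneal macrophages (0.144 to 0.194), day 7 with day 5 in cKO (0.233 to 0.492), IFNg with untreated in WT (0.335 to 0.451) and control with no antibody in WT (0.145 to 0.284). For cKO with WT, however, cKO replicate 2 correlated more with a WT library of another number on day 3 (0.214) and on day 7 (0.359). The pairing comes from these correlations alone and is unclear on those days. The blocked value stands beside a result it changed. The tests were checked on simulated data. Alternatives were DESeq2 1.42.0, RLE scaling, TMM scaling without these genes, no filter, another strand column, only the groups compared, a replicate block, each cKO set as reference, other placements of the day 8 libraries and each library left out. The comparison of the cKO effect of set 2 with sets 1 and 3 and the window around Rpl29 were added after seeing the data. Some members that were called are counted but not reported here by name. The 2 cKO day 8 libraries with contradictory labels entered no comparison.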

Additional observations from a re-analysis of the deposited data

Results flagged for a closer look

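The cKO effect differed between the sets in 10 members. The comparison, chosen after the values were seen, took the log2 change of cKO against WT in set 2 minus the mean of those in sets 1 and 3, in the same edgeR quasi-likelihood model, and 27% of all genes passed it. Rpl29 differed most, by 1.37 ± 0.34 (SE, adjusted p = 0.0039), and its cKO libraries stood at 70.3 to 106.5 CPM in set 2 and at 25.2 to 35.1 CPM in sets 1 and 3. Rps14 differed by 0.75 ± 0.21, Rpl13a by 0.59 ± 0.17, Rps9 by 0.5 ± 0.14, Rps27 by 0.47 ± 0.15, Rps7 by 0.42 ± 0.15, Rpl7 by 0.32 ± 0.11 and Rpl10 by 0.26 ± 0.09, all less low or higher in cKO of set 2. Rpl7l1 differed the other way, by -0.32 ± 0.09. The adjusted p-values of these genes lay between 0.0039 and 0.0423. The median over the 85 members was 0.17. Without WT set 2 replicate 2, WT set 2 replicate 3, cKO set 2 replicate 1 or cKO set 3 replicate 1 the members called numbered 5 or 6.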

How the results depend on the processing

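Over all settings, 306 of 436 counts of called members stayed within 1.5 times their value and 130 moved, and of the named members' changes 9517 were the same, 213 passed the threshold where they had not, 344 no longer passed, 552 changed sign while passing the threshold in neither setting and 12 reversed. The cause of these moves was not tested. With DESeq2 the count of members called was 7 for cKO against WT on day 3, 12 for WT day 5 against day 3, 11 for cKO against WT after IFNg, 17 for IFNg in cKO, 1 in peritoneal macrophages, 7 for control against no antibody in WT, and 13 in WT and 2 in cKO for IFNAR1 against control antibody. Fitting only the groups compared gave 8 on day 3, 7 for WT day 5 against day 3, 0 for cKO against WT after IFNg, 32 for IFNg in WT and 0 in cKO, 1 without antibody, 6 with the control and 0 with the IFNAR1 antibody, 9 for control against no antibody in WT and 5 in cKO, 0 for IFNAR1 against control antibody in both, 8, 16 and 2 in sets 1, 2 and 3, 29, 22 and 16 in the Sting, Mavs and Irf7 knockouts and 6 for set 2 against the other sets. With no filter on low counts the counts were 16 for cKO against WT after IFNg, 7 for IFNg in WT, 2 for the change of the cKO effect with IFNg, 2 in peritoneal macrophages, 9 for control against no antibody in WT, 11 in WT and 4 in cKO for IFNAR1 against control antibody, 8 in set 2, 25 in set 3 and 27, 21 and 17 in the 3 double knockouts. RLE scaling gave 9 in set 3. The strand column gave 0 in set 2 and 2 for IFNAR1 against control antibody in cKO. Placing the contradictory libraries by title gave 0 for cKO against WT after IFNg and 0 for IFNg in cKO, and placing them by library name gave 7 for the first. Against 1 cKO set alone (set 1, 2 or 3), Mavs KO had 20, 0 and 16 calls and Irf7 KO 18, 14 and 0.

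The replicate block gave 2 calls on day 5, 0 for cKO against WT after IFNg, 3 for IFNg in cKO, 2 with the control antibody, 5 for control against no antibody in WT and 6 for IFNAR1 against control antibody in WT. In IFNg against untreated cKO the same numbers correlated at -0.187, and crossing them, an alternative added after seeing the data, gave 4 calls. Outside the 6 paired comparisons the libraries share only a number.

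Changes that reversed were those of the double knockouts against 1 cKO set. Against set 1 alone Rps10 was at 0.171 in Sting KO and 0.346 in Mavs KO. Against set 2 alone Rpl36a (0.518), Rpl39 (0.208) and Rpl23 (0.054) turned in Sting KO, Rpl39 (0.005), Rps27 (0.081), Rps10 (0.022) and Rps21 (0.035) in Mavs KO, and Rps27 (0.5) in Irf7 KO. Against set 3 alone Rpl39 (-0.198) and Rps10 (-0.127) turned in Irf7 KO.

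Leaving out 1 library at a time gave 1 to 4 calls on day 3, 0 to 0 for WT day 5 against day 3, 0 to 3 for WT day 7 against day 5, 0 to 53 for cKO against WT after IFNg, 2 to 11 for IFNg in WT, 0 to 50 in cKO, 0 to 45 for the change of the cKO effect with IFNg, 1 to 9 without antibody, 0 to 1 with the control and 0 to 2 with the IFNAR1 antibody, 0 to 17 for control against no antibody and 0 to 73 for IFNAR1 against control antibody in WT, 0 to 1 for the latter in cKO, 5 to 20 in set 1, 0 to 1 in set 2, 5 to 44 in set 3, 3 to 17, 5 to 11 and 2 to 13 in the Sting, Mavs and Irf7 knockouts, and 5 to 14 for set 2 against the other sets. Depth was lowest in the day 8 experiment, where libraries had 3614967 to 10498769 counts on genes.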

Other observations

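Other gene groups tied to ribosome production were also examined. Host genes of small nucleolar RNAs, whose spliced transcripts also begin with TOP motifs, were called higher in cKO of set 1 (6 of 8, median 0.58) and set 3 (5 of 8, median 0.55), where 18% and 16.9% of all genes were called higher, among them Gas5 at 0.83 ± 0.14 and 0.67 ± 0.14. In set 2, 3 of 8 were called higher (median 0.28, 9.74% of all genes). With the control antibody in WT cells 3 of 8 were called lower (median -1.04, 5.63% of all genes), with Snhg5 at -1.55 ± 0.31. Of 16 regulators of the kinase mTOR, 6 were called higher and 4 lower in set 1 (median -0.01, 34.7% of all genes called), 0 and 3 in set 2 (-0.13, 21%) and 5 and 4 in set 3 (0.01, 34.9%). Among them Sesn1, an inhibitor of the pathway, was lower in cKO of set 1 (-1.41 ± 0.14), set 2 (-0.42 ± 0.14) and set 3 (-1.45 ± 0.14), and Larp1, the protein that binds TOP mRNAs, was higher in sets 1 and 3 (0.74 ± 0.07 in both). After IFNg 1 of the 16 was called higher and 3 lower in WT macrophages and 1 and 4 in cKO, where 40.1% and 33.6% of all genes were called. In WT Larp1 was at 0.74 ± 0.13 and Sesn1 at -1.68 ± 0.20, and in cKO at 0.89 ± 0.17 and -2.0 ± 0.26. Ribosomal protein pseudogenes share sequence with their parent genes. Against all cKO libraries of the sets, 17 of 65 were called higher in Irf7 KO (median 0.55, 4.36% of all genes called higher). In Sting KO and in the libraries labelled Mavs KO, 7 of 65 were called lower (17.2% and 3.24% of all genes called lower). The annotation used for Irf7 KO and set 3 differed from that of the other libraries in this experiment, and its part in these counts was not tested.

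The 2 cKO day 8 libraries that the labels place in no group held 54.2 and 56.5 CPM of Rpl29, 19.48 and 19.05 CPM of Rpl22l1, 234 and 360 CPM of Rps24, 237 and 320 CPM of Rps20, 10.5 and 6.74 CPM of Rpl13a and 80.0 and 47.0 CPM of Rps27l.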
